A study of Mus musculus with 16 samples.

Results

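Axon guidance ligands and receptors were examined as a set of 66 genes of the 25719 listed in RNA of tendon fascicles from the mouse tail, which are bundles of collagen fibres with cells between them. Members were taken by gene symbol: semaphorins of classes 3 to 7 (20 genes) and the plexins that bind them (9), Slits (3) and Robo receptors (4), netrins (4) and Unc5 receptors (4), ephrin-A (5) and ephrin-B (3) ligands, and EphA (9) and EphB (5) receptors. This gave 35 ligands and 31 receptors. Symbols of other families that only resemble these names, such as Unc5cl, the Ntng genes and the Slitrk genes, were not taken.

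These families were named for steering growing axons, and are used well beyond nerves. Semaphorins act through plexins, class 3 semaphorins mostly with a neuropilin as co-receptor. Slits act through Robo receptors, and netrins attract through DCC and repel through Unc5 receptors. Ephrins are membrane-bound and signal into both the cell that carries them and the cell whose Eph receptor tyrosine kinase binds them. In connective tissue and vessels the same families guide endothelial sprouting, cell spacing, adhesion and migration.

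RNA was sequenced from 8 wild type (WT) libraries and 8 libraries of ScxCre;Vhl f/f fascicles (knockout, KO). The labels give all cells of the tissue as the cell type, and give no age, sex or treatment and no further detail of the WT genotype. Cre driven by Scx, a tendon transcription factor gene, is expected to delete floxed Vhl in cells of the Scx lineage, so other cells of the fascicle keep the gene. Vhl encodes the substrate-binding part of the ubiquitin ligase that marks hypoxia-inducible factors (HIF) for breakdown. The series title places HIF1α at the centre of the study, and the KO against WT comparison asks what loss of Vhl does to RNA levels in the tendon. Because bulk tissue was measured, fewer cells of a type and less RNA per cell cannot be told apart. The labels do not state that each library is a different animal, so p-values measure only the spread between these libraries.

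Total counts ran from 10792900 to 16379401 in the WT and from 10488355 to 18753254 in the KO. Levels are given as CPM, a library's counts scaled to a common total, after TMM scaling, an edgeR step that evens out differences in RNA composition. A floor of 3 counts corresponded to 0.145 to 0.336 CPM, depending on the library. Vhl itself was at 14.1, 20.6 and 25.8 CPM (lowest, median and highest of 8 libraries) in the WT and at 7.51, 9.52 and 10.9 CPM in the KO. The genotypes did not overlap, and Vhl was lower in the KO by -1.13 on the log2 scale (SE 0.113, edgeR quasi-likelihood test, Benjamini-Hochberg adjusted p = 9.64e-08). The tenocyte markers checked, among them Scx, Tnmd and Col1a1, were all detected, with 1 of 10 higher and 6 lower in the KO. Libraries KO 6, 7 and 8 and WT 5 held the most skeletal muscle marker RNA. Libraries KO 5, 6 and 8 and WT 3 and 8 stood apart in Scx or type I collagen. Counts that lead the description below are also given without each of these sets.

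Of the 66 members, 52 passed the filter on low counts and were tested. In the KO, 17 of the 52 were higher and 16 were lower at an adjusted p under 0.05, and 19 did not pass the threshold. The 33 that passed are 63.5% of the tested members, against 48.3% of all 14803 genes tested. By direction, the background was 25.6% higher and 22.7% lower. In 16 members, 8 higher and 8 lower, every KO library lay outside the range of the WT libraries, which is 30.8% of the tested members against 19.4% of all tested genes (10.8% higher and 8.61% lower). Among the members past the threshold, 9 were higher and 7 lower by at least 2-fold, against a background of 13.2% of tested genes in either direction. The median log2 fold change of the tested members was 0.07, and that of all tested genes was 0.02.

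The filter shaped these counts. In 5 tested members, Robo4, Efna3, Slit1, Sema7a and Sema4g, at least 1 WT library lay under the filter's cutoff. All 5 were higher in the KO. WT libraries above the cutoff numbered 0 for Robo4 and Efna3, 1 for Slit1, 4 for Sema7a and 7 for Sema4g. All 8 KO libraries were above it. The filter counted libraries of both genotypes together. Robo4 and Efna3 thus entered the test through the KO alone, Slit1 mostly so and Sema7a in part. Sema4g had nearly all its WT libraries above the cutoff as well. Robo4, Efna3, Sema7a and Slit1 are among the 9 higher by at least 2-fold. Robo4, Efna3 and Sema7a are also among the 8 higher without overlap. Of the 47 members besides these 5, 12 were higher and 16 lower. Scaling to total counts in place of TMM moved the median of all tested genes by 0.30 on the log2 scale, and then 27 members were higher and 11 lower. Under that scaling 10 further members, among them Sema3c, Plxnb2 and Slit3, passed as higher. Ephb4, Ntn1, Ephb3, Epha3 and Efnb1 kept their negative sign there but no longer passed the test. Without the 4 libraries richest in muscle marker RNA, 15 members were higher and 15 lower. Without the 5 libraries that stood apart in Scx or type I collagen, 15 were higher and 14 lower. Besides Slit2 and Ntn1, described below, Efna1 did not pass in either set, and Sema3a and Efnb1 did not pass in the second. Both sets were chosen after seeing the data.

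**Figure D1:**
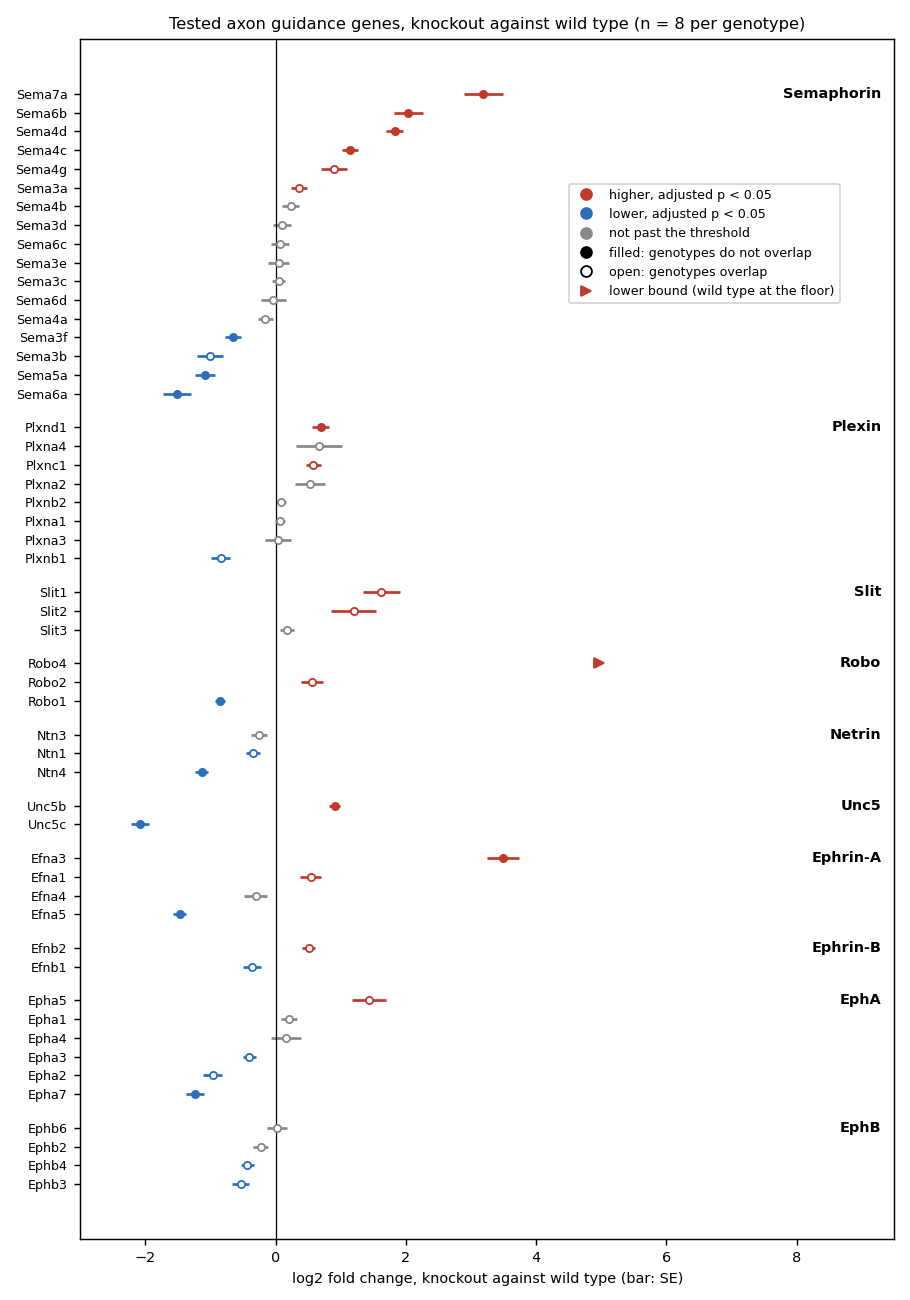
Log2 fold change of the 52 tested members, KO against WT, by family, with bars for the SE. Robo4 is drawn as a lower bound because all its WT libraries were at the floor. Every family with at least 2 genes past the threshold, other than the Slit, netrin and EphB families, held genes that were higher and genes that were lower in the KO.

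Ligands and receptors changed in both directions. Of 29 tested ligands, 11 were higher and 8 lower in the KO. Of 23 tested receptors, 6 were higher and 8 lower. Both tested Unc5 genes changed, in opposite directions. The netrins gave 2 lower and none higher of 3 tested, the EphB receptors 2 lower and none higher of 4, and the Slits 2 higher and none lower of 3. The difference between families was not tested.

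Semaphorins were the largest family, with 6 of 17 tested genes higher and 4 lower. The secreted class 3 genes gave 1 higher and 2 lower of 6, and the membrane-bound classes 4 to 7 gave 5 higher and 2 lower of 11. Sema7a encodes a GPI-anchored semaphorin that binds plexin C1 and integrins. It was at 0.628, 0.934 and 1.92 CPM in the WT and at 5.27, 7.66 and 15.4 CPM in the KO. Every KO library was above every WT library, a 9.14-fold rise (log2 fold change 3.19, SE 0.293, edgeR adjusted p = 3.77e-08). Its highest levels, from 13.2 to 15.4 CPM, were in KO 6, 7 and 8, the libraries richest in endothelial and muscle marker RNA. Sema4d, a transmembrane ligand of plexin B1, was at 4.84, 7.66 and 8.70 CPM in the WT and at 20.4, 25.6 and 33.0 CPM in the KO. Again no libraries overlapped, and the rise was 3.55-fold (log2 fold change 1.83, SE 0.126, edgeR adjusted p = 4.44e-10).

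Sema6b, a transmembrane ligand of class A plexins, was at 1.29, 1.97 and 2.69 CPM in the WT and at 3.83, 7.97 and 12.3 CPM in the KO. The genotypes did not overlap (log2 fold change 2.04, SE 0.226, edgeR adjusted p = 3.51e-07). Sema4c, a ligand of plexin B2, was at 25.4, 37.0 and 47.0 CPM in the WT and at 63.9, 76.5 and 108 CPM in the KO. All its KO libraries were above the WT range (log2 fold change 1.15, SE 0.124, edgeR adjusted p = 3.17e-07). A gene on the other strand, D430040D24Rik, overlaps 7.27% of the exon length of Sema4c. The strand setting of the counting is not given, so reads in that stretch cannot be assigned to either gene. Sema4g was at 0.960, 1.11 and 1.91 CPM in the WT and at 1.37, 2.35 and 2.99 CPM in the KO. Its ranges overlapped, and it rose by 0.90 on the log2 scale (SE 0.200, edgeR adjusted p = 0.001). Sema3a, a secreted repellent that binds neuropilin 1, was higher by 0.37 on the same scale (edgeR adjusted p = 0.0199).

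The 4 semaphorins that fell had WT medians from 30.9 to 341 CPM. Sema6a, the class 6 relative of Sema6b and also a plexin A ligand, was at 43.6, 62.9 and 87.9 CPM in the WT and at 11.96, 23.4 and 32.7 CPM in the KO. The genotypes did not overlap (log2 fold change -1.52, SE 0.218, edgeR adjusted p = 2.01e-05), so Sema6a and Sema6b moved in opposite directions. Sema5a, which carries thrombospondin repeats beside its semaphorin domain, was at 23.9, 30.9 and 43.0 CPM in the WT and at 10.7, 12.98 and 21.8 CPM in the KO. It fell without overlap (log2 fold change -1.08, SE 0.151, edgeR adjusted p = 8.5e-06). Sema3f, a secreted ligand of neuropilin 2, was at 31.4, 34.3 and 42.9 CPM in the WT and at 17.9, 20.7 and 29.5 CPM in the KO. Its ranges were also separate (log2 fold change -0.65, SE 0.120, edgeR adjusted p = 0.000158). Sema3b, another secreted neuropilin ligand, was at 197, 341 and 426 CPM in the WT and at 96.9, 158 and 255 CPM in the KO. Its ranges overlapped (log2 fold change -1.003, SE 0.202, edgeR adjusted p = 0.000497).

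Sema3c had the highest level per exon length of all members in both genotypes, at 72.1 CPM per kb in the WT and 74.5 CPM per kb in the KO. It encodes a secreted semaphorin that binds both neuropilins. Its levels were 475, 512 and 591 CPM in the WT and 446, 496 and 686 CPM in the KO, with the WT range inside the KO range. The difference was 0.05 on the log2 scale (SE 0.0941, edgeR adjusted p = 0.711). Summed over the family, semaphorin RNA was at 1417, 1578 and 1732 CPM in the WT and at 1281, 1462 and 2048 CPM in the KO, so the family total overlapped while its makeup differed.

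Among the plexins, the receptors of semaphorins, 2 of 8 tested genes were higher and 1 was lower. Plxnd1, a receptor of Sema3e known from vessel patterning, was at 75.9, 91.2 and 123 CPM in the WT and at 124, 142 and 201 CPM in the KO. The highest WT library lay just below the lowest KO library (log2 fold change 0.69, SE 0.130, edgeR adjusted p = 0.000204). Plxnc1, the plexin that binds Sema7a, rose by 0.58 on the log2 scale with overlapping ranges (SE 0.113, edgeR adjusted p = 0.000268). Plxnb1, the receptor of Sema4d, was at 8.93, 12.9 and 21.4 CPM in the WT and at 6.13, 7.37 and 8.999 CPM in the KO. It fell with 7 of 8 KO libraries below the WT range (log2 fold change -0.84, SE 0.142, edgeR adjusted p = 6.41e-05), and an antisense gene, Gm7628, overlaps 2.68% of its exon length. Thus Sema7a and Plxnc1 were both higher, whereas Sema4d was higher and Plxnb1 lower. Plxnb2, the most abundant plexin and the receptor of Sema4c, was at 154, 176 and 226 CPM in the WT and at 174, 193 and 219 CPM in the KO. Its KO range lay inside the WT range (log2 fold change 0.09, SE 0.0749, edgeR adjusted p = 0.36). Plxna4 and Plxna2 had log2 fold changes of 0.67 and 0.53 that did not pass the test (edgeR adjusted p = 0.125 and 0.0653). With an endothelial marker score as covariate, described below, they were -1.21 and -0.44 (edgeR adjusted p = 0.00211 and 0.219).

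The stretches just upstream of the Sema7a, Plxnc1 and Plxnd1 starts are shown because these are a ligand with its receptor and a second plexin that rose in a Vhl knockout, where HIF binding is of interest. Each is the 250 bases before the RefSeq start in GRCm38.p6, 5′ to 3′ along the gene's strand. Capitals mark ACGTG or GCGTG, the core of the HIF-bound element, read on either strand (CACGT and CACGC on the other), with touching matches run together. Sema7a lies at chr9:57939862-57940111 on the plus strand, Plxnc1 at chr10:94944846-94945095 on the minus strand and Plxnd1 at chr6:115995006-115995255 on the minus strand.
Sema7a: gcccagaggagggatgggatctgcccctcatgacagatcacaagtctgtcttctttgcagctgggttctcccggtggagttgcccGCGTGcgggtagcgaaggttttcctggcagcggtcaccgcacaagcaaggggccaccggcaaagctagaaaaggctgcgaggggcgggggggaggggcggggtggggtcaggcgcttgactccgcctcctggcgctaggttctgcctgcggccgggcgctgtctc
Plxnc1: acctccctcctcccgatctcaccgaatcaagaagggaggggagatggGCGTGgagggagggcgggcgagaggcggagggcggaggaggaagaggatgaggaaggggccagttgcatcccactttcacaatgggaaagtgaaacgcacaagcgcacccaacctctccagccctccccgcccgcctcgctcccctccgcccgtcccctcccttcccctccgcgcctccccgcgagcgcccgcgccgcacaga
Plxnd1: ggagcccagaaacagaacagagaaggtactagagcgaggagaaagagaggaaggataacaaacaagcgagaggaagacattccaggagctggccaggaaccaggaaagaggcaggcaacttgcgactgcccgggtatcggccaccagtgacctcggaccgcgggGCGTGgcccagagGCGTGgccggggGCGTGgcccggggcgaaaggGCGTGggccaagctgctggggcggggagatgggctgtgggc
The Sema7a and Plxnc1 windows hold 1 GCGTG match each, and the Plxnd1 window holds 4. Such matches are frequent: 28 of the 57 members with a window have at least 1 (49.1%), against 60.4% of the 10476 tested genes with a window, 41.5% of 27025 genes with a window and 38.6% of all 32851 windows of this length. The members' share thus lay above that of all genes with a window and below that of the tested genes with a window. The comparison with the tested genes is not like for like, because the 57 include 12 untested members, of which 4 have a match (33.3%). Among tested members with a window, a match was found for 10 of 16 that were higher (62.5%) and 6 of 12 that were lower. It was found for 8 of 17 that did not pass (47.1%). Against the 60.4% of tested genes with a window, the higher members thus lay slightly above. The lower members and those that did not pass lay below it. The differences between these shares were not tested. Each higher member whose window is printed here or below has a match, but the printed windows are a choice. The windows of Robo4, Slit2, Epha5, Efnb2, Efna1 and Sema3a, which were also higher, hold no match. A match is a string of letters and not a binding site.

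The Slit ligands, secreted repellents, gave 2 genes higher and 1 that did not pass. Slit1 was at 0.253, 0.532 and 1.06 CPM in the WT and at 0.989, 1.87 and 2.81 CPM in the KO. Its ranges met only at the lowest KO library (log2 fold change 1.62, SE 0.285, edgeR adjusted p = 9.79e-05). Slit2 was at 2.51, 3.53 and 4.97 CPM in the WT and at 3.29, 6.59 and 17.02 CPM in the KO, with overlap (log2 fold change 1.1997, SE 0.341, edgeR adjusted p = 0.00773). This rise depended on a few libraries: without the 4 muscle-rich libraries it was 0.37 (edgeR adjusted p = 0.221), and without the 5 that stood apart in Scx or type I collagen it was 0.97 (edgeR adjusted p = 0.0717). Slit3, the most abundant Slit, was at 77.8, 104 and 141 CPM in the WT and at 93.7, 113 and 137 CPM in the KO. The KO range lay inside the WT range (log2 fold change 0.17, SE 0.105, edgeR adjusted p = 0.183).

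The Robo receptors of Slits moved apart. Robo4, the member typical of endothelial cells, was at 0, 0.0422 and 0.199 CPM in the WT, at most 3 counts in any library, and at 1.02, 6.57 and 22.7 CPM in the KO. Every KO library was above every WT library, and the mean was at least 31.3-fold higher than the mean floor of 3 counts per WT library (edgeR adjusted p = 1.74e-05). Robo1, the Robo with the highest level in the fascicles, was at 69.0, 72.5 and 101 CPM in the WT and at 38.5, 42.3 and 47.6 CPM in the KO. It fell without overlap (log2 fold change -0.85, SE 0.0776, edgeR adjusted p = 2.68e-08). Robo2 was higher by 0.56 on the log2 scale, with overlapping ranges (SE 0.166, edgeR adjusted p = 0.0086). The sum over the family, carried by Robo1, was at 73.4, 77.4 and 106 CPM in the WT and at 45.4, 56.6 and 71.6 CPM in the KO, so the family total did not overlap either.

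Both netrins that changed were lower. Ntn4, a basement membrane netrin that binds laminin, was at 92.8, 112 and 137 CPM in the WT and at 41.7, 50.05 and 66.1 CPM in the KO. The genotypes did not overlap (log2 fold change -1.13, SE 0.103, edgeR adjusted p = 2.5e-08). Ntn1, the classical netrin and the most abundant one here, was at 185, 253 and 321 CPM in the WT and at 172, 211 and 239 CPM in the KO. Its ranges overlapped (log2 fold change -0.35, SE 0.106, edgeR adjusted p = 0.0104), and it did not pass the test without the muscle-rich libraries or without those that stood apart in Scx or type I collagen. Ntn3 had a log2 fold change of -0.25 that did not pass (edgeR adjusted p = 0.106) and was 0.06 with total counts for scaling. The netrin sum was at 289, 379 and 466 CPM in the WT and at 231, 263 and 311 CPM in the KO, with overlap.

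The tested Unc5 receptors of netrins moved in opposite directions. Unc5b, also known from endothelial tip cells, was at 31.0, 41.7 and 50.9 CPM in the WT and at 59.5, 79.6 and 85.2 CPM in the KO. All KO libraries were above the WT range (log2 fold change 0.91, SE 0.0911, edgeR adjusted p = 9.75e-08). Unc5c was at 20.7, 29.9 and 39.2 CPM in the WT and at 5.18, 7.15 and 9.47 CPM in the KO. It fell 4.24-fold without overlap (log2 fold change -2.08, SE 0.142, edgeR adjusted p = 4.58e-10), the largest fall among the 52 tested members. An antisense gene, Gm15688, overlaps 0.617% of its exon length. The upstream windows of Unc5b (chr10:60831582-60831831, minus strand) and Ntn4 (chr10:93640799-93641048, plus strand) are shown as a receptor that rose and a ligand that fell in 1 system, with the same build, length and capitals as above.
Unc5b: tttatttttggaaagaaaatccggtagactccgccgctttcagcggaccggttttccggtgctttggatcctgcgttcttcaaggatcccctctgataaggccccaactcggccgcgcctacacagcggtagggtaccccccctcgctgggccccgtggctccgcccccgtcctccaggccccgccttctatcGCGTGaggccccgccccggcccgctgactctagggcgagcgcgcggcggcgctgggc
Ntn4: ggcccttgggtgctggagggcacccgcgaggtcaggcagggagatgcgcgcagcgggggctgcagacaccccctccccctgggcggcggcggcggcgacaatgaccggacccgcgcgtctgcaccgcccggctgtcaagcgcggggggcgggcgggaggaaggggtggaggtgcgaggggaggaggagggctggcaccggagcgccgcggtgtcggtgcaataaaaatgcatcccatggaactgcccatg
The Unc5b window holds 1 GCGTG match and the Ntn4 window holds none, which says only that these letters are not in this window.

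Ephrin-A ligands, GPI-anchored partners of EphA receptors, changed in both directions. Efna3 was at 0.151, 0.367 and 0.696 CPM in the WT and at 3.80, 4.39 and 7.51 CPM in the KO. All KO libraries were above the WT range, an 11.2-fold rise (log2 fold change 3.49, SE 0.245, edgeR adjusted p = 5.96e-10). The WT level behind this fold was near the floor: no WT library held more than 8 counts, and WT 1 and WT 2 were under 3 counts. The antisense gene Gm15998 overlaps 14.1% of its exon length, and reads in that stretch cannot be assigned to either gene. Efna5, the ephrin-A with the highest level in the WT, was at 40.0, 53.6 and 60.3 CPM in the WT and at 14.2, 18.6 and 24.1 CPM in the KO. Every KO library was below every WT library (log2 fold change -1.47, SE 0.0994, edgeR adjusted p = 3.28e-10). Efna1 was higher by 0.54 on the log2 scale with overlap (SE 0.162, edgeR adjusted p = 0.00964). Summed ephrin-A RNA was at 51.0, 65.4 and 78.4 CPM in the WT and at 35.9, 40.8 and 47.6 CPM in the KO, so the total fell outside the WT range although 2 of its 4 tested genes rose.

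The windows upstream of Efna3 (chr3:89322940-89323189, minus strand) and Efna5 (chr17:62881318-62881567, minus strand) are shown because the genes moved in opposite directions, again as 250 bases of GRCm38.p6 from RefSeq with matches in capitals.
Efna3: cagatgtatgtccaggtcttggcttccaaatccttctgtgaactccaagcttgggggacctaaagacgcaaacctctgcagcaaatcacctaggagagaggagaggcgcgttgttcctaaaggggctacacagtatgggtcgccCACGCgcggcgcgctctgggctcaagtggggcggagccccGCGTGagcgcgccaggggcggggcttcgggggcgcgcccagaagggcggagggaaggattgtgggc
Efna5: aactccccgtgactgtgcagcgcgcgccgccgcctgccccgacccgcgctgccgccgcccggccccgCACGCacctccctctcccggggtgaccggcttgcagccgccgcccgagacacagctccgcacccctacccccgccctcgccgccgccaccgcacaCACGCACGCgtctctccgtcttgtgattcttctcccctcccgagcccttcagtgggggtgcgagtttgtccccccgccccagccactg
Efna3, which rose, holds 2 GCGTG matches and Efna5, which fell, holds 3. RefSeq gives 2 windows for Efna3, of which 1 is shown.

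Ephrin-B ligands span the membrane and bind EphB receptors. Efnb2, a marker of arteries that also binds Ephb4, was at 13.2, 15.98 and 17.8 CPM in the WT and at 17.5, 22.2 and 29.8 CPM in the KO. The ranges met only at the lowest KO library (log2 fold change 0.51, SE 0.0997, edgeR adjusted p = 0.000284). Efnb1 was lower by -0.36 on the log2 scale (edgeR adjusted p = 0.0458), which passed the test in only 4 of the 16 fits that each left out 1 library.

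EphA receptors gave 1 gene higher and 3 lower of 6 tested. Epha5 was at 1.87, 2.84 and 4.74 CPM in the WT and at 4.42, 7.71 and 13.2 CPM in the KO. Of its KO libraries 7 of 8 were above the WT range (log2 fold change 1.44, SE 0.258, edgeR adjusted p = 0.000134). Epha7 was at 7.18, 10.1 and 13.8 CPM in the WT and at 3.55, 4.37 and 5.43 CPM in the KO. It fell without overlap (log2 fold change -1.24, SE 0.135, edgeR adjusted p = 2.92e-07). Epha2, the receptor best known from epithelia and vessels, was at 15.9, 20.7 and 29.5 CPM in the WT and at 8.47, 10.1 and 16.3 CPM in the KO. Of its KO libraries 7 of 8 were below the WT range (log2 fold change -0.97, SE 0.145, edgeR adjusted p = 1.69e-05). Epha3, the most abundant EphA and a receptor with high affinity for ephrin-A5, was at 107, 143 and 163 CPM in the WT and at 81.5, 104 and 148 CPM in the KO. Of its KO libraries 6 of 8 were below the WT range, and KO 2, the highest, and KO 6 were inside it (log2 fold change -0.40, SE 0.102, edgeR adjusted p = 0.00306).

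EphB receptors gave 2 lower and none higher of 4 tested. Ephb3 was at 30.4, 33.1 and 56.0 CPM in the WT and at 20.2, 27.7 and 32.0 CPM in the KO. The ranges overlapped (log2 fold change -0.54, SE 0.136, edgeR adjusted p = 0.00294). Ephb4, the vein-side receptor of ephrin-B2, was lower by -0.43 on the log2 scale (SE 0.101, edgeR adjusted p = 0.00153), opposite to the rise of Efnb2. Ephb2 and Ephb6 had log2 fold changes of -0.23 and 0.02 that did not pass the test (edgeR adjusted p = 0.124 and 0.938), and Ephb2 was at 0.08 with total counts for scaling.

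**Figure D2:**
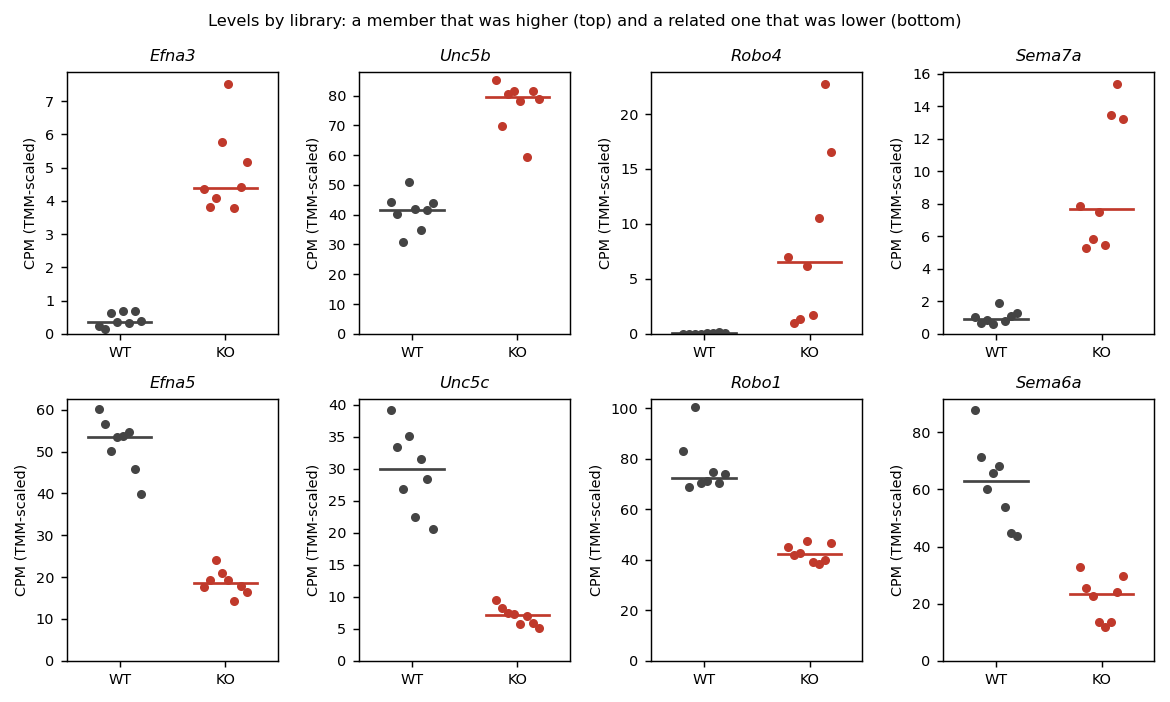
Level of 8 members in each library, in TMM-scaled CPM on linear axes that start at 0, with points for libraries and lines for the median of 8. In all 8 panels the WT and KO libraries do not overlap. The upper gene of each pair was higher in the KO and the lower gene was lower.

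The abundant members set the levels of the tissue. Per kb of exon, the WT order began with Sema3c at 72.1, Sema3b at 70.1, Ntn1 at 41.5, Sema3d at 32.0 and Ntn4 at 30.3 CPM per kb. In the KO it began with Sema3c at 74.5, Sema3b at 35.0, Sema3d at 34.3, Ntn1 at 32.5 and Plxnb2 at 25.1 CPM per kb. Secreted ligands thus led in both genotypes. The 3 largest rises, those of Robo4, Efna3 and Sema7a, were in genes whose WT median was under 1 CPM. The median coefficient of variation over tested members was 18.4% in the WT and 19.7% in the KO, but it differed by family. It was 17.8% and 26.7% for semaphorins, 13.9% and 32.1% for Robo genes, and 30.6% and 14.7% for ephrin-A genes. For Slit2 it was 20.5% in the WT and 64.9% in the KO.

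**Figure D3:**
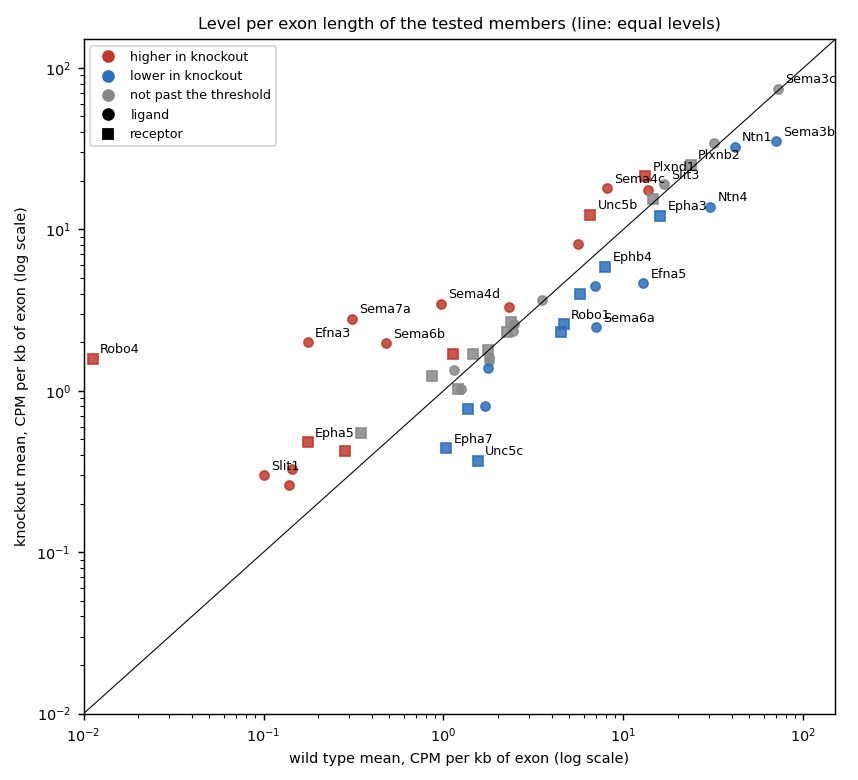
Mean level of each tested member in CPM per kb of exon, WT on the horizontal and KO on the vertical axis, both on log scales, with circles for ligands and squares for receptors. Points above the line of equal levels are higher in the KO. Sema3c lies on the line at 72.1 and 74.5 CPM per kb, while Robo4, Efna3 and Sema7a lie far above it at low levels.

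The 14 untested members had WT medians from 0 to 0.609 CPM, and 4 of them, Ntn5, Unc5d, Epha6 and Epha8, never exceeded 3 counts. A fit without the filter on low counts, in which 23 members were higher and 15 lower, gave an adjusted p under 0.05 for 6 of the 14. Sema3g, a class 3 semaphorin known from arterial endothelium, was at 0, 0.0390 and 0.209 CPM in the WT and at 0, 1.89 and 7.55 CPM in the KO. It was at least 11.2-fold higher than the floor of 3 counts per WT library, although 1 KO library was at 0 (edgeR without filter, adjusted p = 0.000706). Sema4f and Ephb1 were higher in the KO without overlap (edgeR without filter, adjusted p = 6.68e-06 and 0.000909).

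Several members are made by endothelial cells, so vessel marker RNA is given beside them. The summed level of 13 endothelial markers was at 42.1, 51.3 and 62.0 CPM in the WT and at 61.1, 196 and 592 CPM in the KO. Of the 10 markers tested, 8 were higher, and Tie1 and Cldn5 were at or under 3 counts in every WT library. KO 6, 7 and 8 had the highest endothelial sums, and they were also the KO libraries richest in muscle markers. Robo4 reached its highest levels in the same 3 libraries. KO 2 had the lowest endothelial sum of the KO libraries, 61.1 CPM, which lay inside the WT range. Erg (20.5 CPM) and Tek (17.5 CPM) carried most of that sum. By single genes KO 2 was mixed. Of the 13 markers 5 were above their highest WT library: Pecam1 (4.59 CPM), Erg, Egfl7, Vwf and Tie1. Inside the WT range were 7, and 1, Esam (2.30 CPM), was below it. In KO 2 Efna3 was at 3.83, Sema7a at 5.27, Sema4d at 25.4, Unc5b at 69.9 and Robo4 at 1.02 CPM, all above the highest WT library. The genotypes did not overlap in any of these genes, so the same held in every KO library and is nothing particular to KO 2. Slit2 in KO 2, at 4.76 CPM, was below its highest WT library, and Sema3g was at 0.170 CPM.

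With the endothelial score as a covariate in the edgeR fit, 12 members were higher and 14 lower, and 22 of the 33 passed in the same direction. The fitted log2 fold change of Robo4, no bound since its WT libraries were at the floor, was 3.38 there (edgeR adjusted p = 3.27e-05). Sema7a was lower than in the fit without the covariate, at 1.94 (edgeR adjusted p = 1.68e-06), as was Sema6b at 1.14 (edgeR adjusted p = 0.00139), while Sema5a moved further down to -1.68 (edgeR adjusted p = 1.74e-06). That of Slit2 turned to -0.42 (edgeR adjusted p = 0.386), and that of Sema3b was -0.48 (edgeR adjusted p = 0.223). Slit1, Plxnd1, Efnb2, Plxnc1, Efna1, Sema4g, Ntn1, Ephb3 and Epha3 also no longer passed. In that fit 4 further members passed: Sema3c (0.37) and Sema3d (0.61) as higher, and Sema6d (-0.75) and Plxna4 (-1.21) as lower, all as log2 fold changes. With a skeletal muscle score as covariate 32 of the 33 passed, and Slit2 was at 0.58 (edgeR adjusted p = 0.124). The endothelial score differs between the genotypes, so the covariate and the genotype share information, and the part of vessel RNA in the results was not tested.

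**Figure D4:**
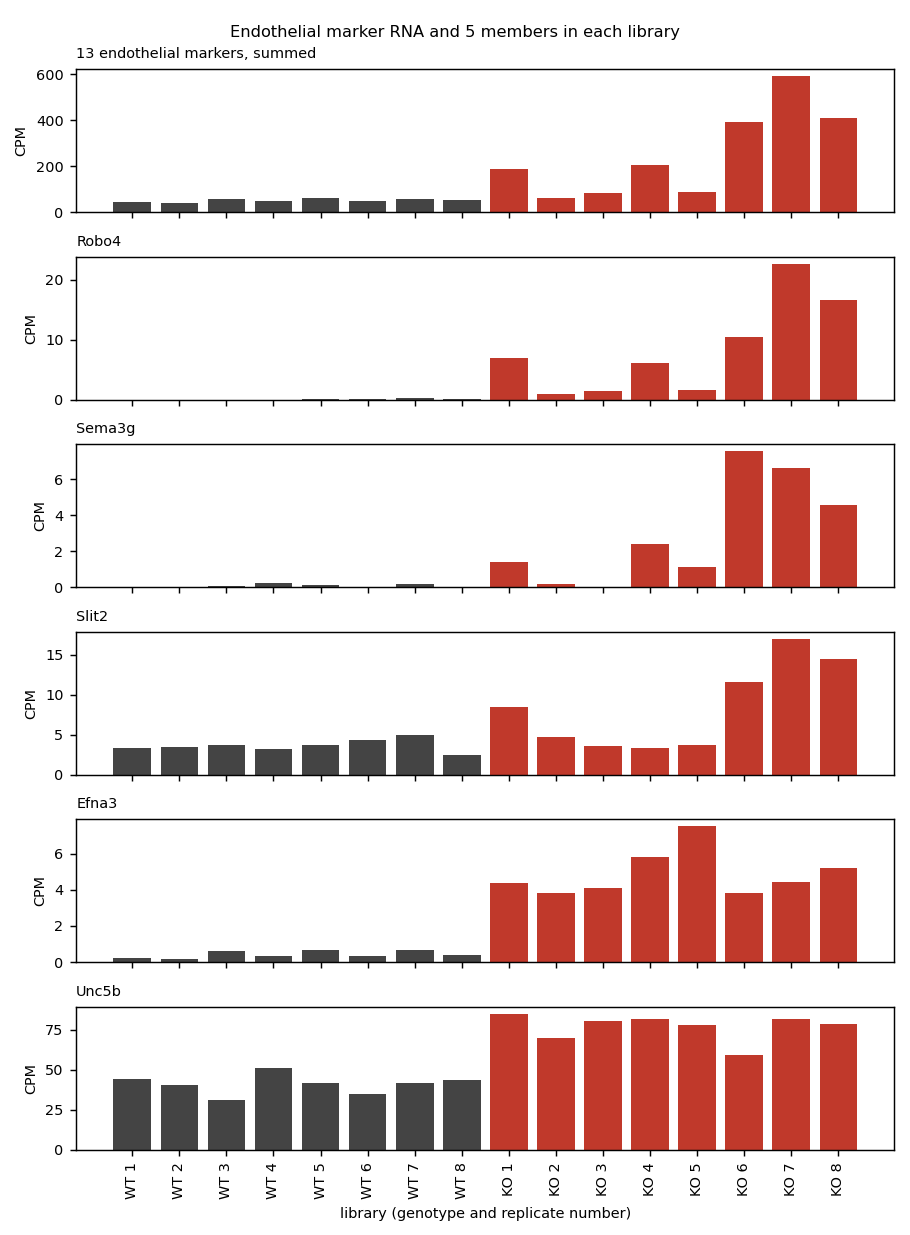
Summed level of 13 endothelial markers (top) and levels of 5 members in each of the 16 libraries, in TMM-scaled CPM, with dark bars for WT and red bars for KO. Robo4, Sema3g and Slit2 are highest in the 3 libraries with the highest marker sums, KO 6, 7 and 8. Robo4, Efna3 and Unc5b are above the WT range in every KO library. KO 2 has the lowest marker sum of the KO libraries, 61.1 CPM, although 5 of the 13 markers are above the WT range there.

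Markers of other cells that could sit in or on a fascicle moved as follows. Mural cell markers summed to 354, 412 and 474 CPM in the WT and to 332, 697 and 1580 CPM in the KO, with 5 higher and 1 lower of 8 tested. Skeletal muscle markers summed to 49.8, 277 and 3972 CPM in the WT and to 137, 746 and 8043 CPM in the KO, with 1 of 12 higher. Schwann cell markers, from cells around axons, summed to 416, 448 and 480 CPM in the WT and to 296, 396 and 546 CPM in the KO, with 3 of 7 higher. Pmp22, with means of 409 CPM in the WT and 344 CPM in the KO, carried most of these sums and did not pass the test. The 3 that were higher were S100b, Prx and Egr2. Neuronal markers were low, at 5.75, 8.69 and 18.1 CPM in the WT and 4.08, 6.56 and 15.3 CPM in the KO, with 1 of 2 tested genes lower and Nefl at 0 in every WT library. Of the remaining lists, 1 of 1 arterial marker, 4 of 10 macrophage markers, 2 of 5 chondrocyte markers and 2 of 2 adipocyte markers were higher, and 1 chondrocyte marker and 2 of 3 keratinocyte markers were lower. The part of these cells in the results was not tested.

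The pathway around the members was followed through 55 co-receptors, signalling partners and modulators. Of 49 tested, 12 were higher and 18 lower in the KO, which is 61.2% against the 48.3% of all tested genes, with a median log2 fold change of -0.09. With total counts for scaling the split was 23 higher and 9 lower. The filter on low counts matters here too. WT and KO libraries above its cutoff numbered 2 and 8 for Rnd1, 7 and 8 for Chl1, 8 and 6 for Ntng1, and 8 and 0 for Dpysl5. The other tested genes named below had all 8 libraries of each genotype above it. Chl1, a neural adhesion molecule of the L1 family that joins class 3 semaphorin receptors, was at 0.483, 1.33 and 2.19 CPM in the WT and at 26.8, 52.8 and 79.2 CPM in the KO. The genotypes were far apart, with a 39.0-fold rise (log2 fold change 5.29, edgeR adjusted p = 3.9e-11). Next came Rnd1, a small GTPase that binds plexins (1.93), and Mical2, an oxidase of actin (1.15). L1cam, a relative of Chl1 (0.91), and Cd72, a receptor of Sema4d on B cells (0.66), followed. All are log2 fold changes past the threshold. Rnd1 and L1cam had overlapping ranges. With the endothelial score as covariate L1cam was at 0.42 and no longer passed (edgeR adjusted p = 0.258), while Chl1, Rnd1, Mical2 and Cd72 still passed.

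Dpysl5, a member of the collapsin response mediator family that acts downstream of semaphorins, was at 10.7, 15.98 and 21.8 CPM in the WT and at 0, 0.0922 and 0.255 CPM in the KO. No KO library held more than 3 counts, so the WT mean was at least 72.8-fold higher than the floor of the KO libraries (edgeR adjusted p = 1.59e-13). Flrt1, a membrane protein that binds Unc5 receptors and latrophilins, was at 12.9, 21.9 and 31.9 CPM in the WT and at 1.04, 2.41 and 4.24 CPM in the KO, without overlap (log2 fold change -3.17, edgeR adjusted p = 3.96e-08). Ntng1 and Ntng2, the GPI-anchored netrin-G genes, were lower by -1.91 and -1.14, and Rgma, a repulsive ligand of neogenin, by -0.997 on the log2 scale. Of the neuropilins that serve class 3 semaphorins, Nrp1 had a log2 fold change of -0.04 (edgeR adjusted p = 0.703) and Nrp2 of -0.33 (edgeR adjusted p = 0.0222). Dcc, the attractive netrin receptor, was not among the tested genes.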

How the data were processed

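RNA was measured in 16 libraries of tail tendon fascicles, 8 per genotype, grouped by the genotype in their titles. The deposited files hold raw counts per Ensembl gene, 1 column of whole numbers per library per the file headers. The submitters' processing notes name kallisto, featureCounts and the build GRCm39 without stating roles or versions, and the strand setting is not given in the sources used here, so reads in stretches shared with an antisense gene are uncertain. Of 25719 identifiers, 25614 matched a symbol.

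Counts were fitted with edgeR 4.0.16 in R 4.3.3 (TMM, filterByExpr, robust quasi-likelihood F test, two-sided, Benjamini-Hochberg over 14803 genes, threshold 0.05). The SE is the log2 fold change divided by the root of F. The filter left 10916 genes untested. The procedure was also run on simulated counts, drawn independently for each gene, in which few genes were changed. In these data 7151 of 14803 genes passed the threshold, so that run gives no error rate for them. DESeq2 1.42.0 and limma 3.58.1 (voom) served as alternatives. Total counts per library set the precision, and floors cover counting error only. Exon lengths, chromosomes and exon overlaps came from GENCODE M21 (GRCm38), and upstream windows from RefSeq (GRCm38.p6), both without converting coordinates.

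Members, lists and tests were chosen with earlier results of these data known. Values were given for the 12 largest rises and 12 largest falls past the threshold, the most abundant member of each family, and the 5 largest rises and falls of the pathway list. Other members named beside these were chosen after their values were seen. The labels do not state that replicate numbers pair the libraries, so the main fit did not treat them as pairs. Correlations of same-numbered deviations ran from -0.40 to 0.39, which does not settle whether any libraries are paired.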

Additional observations from a re-analysis of the deposited data

Results flagged for a closer look

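In Sema4g, a semaphorin that was higher in the KO, WT library 1 lay far from the others of its group: it was at 1.91 CPM and the next highest WT library was at 1.26 CPM. On the log2 scale the gap was 0.618 of the group's whole range, above the critical value of Dixon's test for a group of 8 libraries. On that scale no other group was set apart among the 60 groups of 8 libraries examined (30 named members in both genotypes), where chance gives about 3. On the linear CPM scale 4 groups were set apart: the same one (0.688 of the range), Robo1 and Plxnb1 in WT library 3 (0.555 and 0.627), and Epha3 in KO library 2 (0.580).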

How the results depend on the processing

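Whether replicate numbers pair the libraries is not stated. With the replicate number as a block in the fit, 17 members were higher and 16 lower. Scaling to total counts gave 8270 genes higher and 1415 lower over the whole table, 27 members higher, and 23 pathway genes higher and 9 lower. The endothelial covariate gave 4543 genes past the threshold (2463 higher, 2080 lower) and 6 pathway genes higher. Testing against a 1.2-fold change gave 4236 genes (2311 higher, 1925 lower) and 18 pathway genes (7 higher, 11 lower). Leaving out each library in turn gave 32 to 34 members past the threshold, 17 to 19 higher and 15 to 17 lower. Over all settings the sign turned for 14 tested members, of which 1, Slit2, had passed the threshold. Among the 30 members with values by library it turned for Slit2 with the endothelial covariate, to -0.42, and for Sema3c, which did not pass the threshold in the full set, to -0.01515 without KO replicate 2 (-0.01515 to 0.0797 over the 16 omissions). Leaving out 1 library took Slit3 (WT 3), Efna4 (WT 5), Sema4b (WT 6), Ntn3 (WT 8), Plxna2 (KO 2, 3 or 5), Plxna4 (KO 5) and Ephb2 (KO 7) past the threshold. The cause was not tested. Levels under 0.145 to 0.336 CPM, the floor of 3 counts, were not detectable at this depth.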
